A study of Mus musculus with 6 samples.

Results

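The genes described here are 35 genes of glycolysis and of the response to low oxygen, measured in primary mouse microglia with and without the adaptor protein Dap12. They were chosen by name, with earlier results of these data known. A gene was taken as measured where a probe set of the array carried its symbol and no other, and the brightest such probe set over the 6 arrays stood for it. By that rule 32 of the 35 genes were measured, of 18193 genes with such a probe set in all. They are 3 genes of oxygen sensing, 10 genes regulated by hypoxia-inducible factor (HIF) outside glycolysis, 13 glycolytic enzymes, and 6 transporters and regulators of glycolytic flux. Bnip3l, Eno1 and Gpi1 had no probe set of a single symbol here and were not analysed here.

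RNA of cultured microglia, the resident macrophages of the brain, was hybridised to 6 single-colour oligonucleotide arrays. On 3 arrays the cells were Dap12-deficient (labelled Dap12-ko), and on 3 they were wild-type (labelled Dap12-wt). Dap12, the product of Tyrobp, is a signalling adaptor of myeloid receptors such as Trem2. The sources used here do not give the strain, age or sex of the mice, the kind of Dap12 mutation, or the oxygen level and medium of the cultures. The titles of wild-type array 2 and Dap12-deficient array 3 carry a single number and the others a pair of numbers, with no meaning stated. Nothing ties the arrays to separate animals, and the sample titles do not tie them to separate cultures. All p-values rest only on the spread among these 6 arrays, which may be technical.

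Glycolysis splits glucose into pyruvate in the cytosol, and lactate dehydrogenase turns pyruvate into lactate where oxygen is short or glycolysis runs fast. The transcription factor HIF consists of an oxygen-labile alpha subunit, such as the product of Hif1a, and a stable beta subunit. Prolyl hydroxylases of the Egln family mark the alpha subunit for destruction while oxygen is present. When oxygen falls, HIF binds the core letters ACGTG or GCGTG in its target genes and raises glucose transporters, most glycolytic enzymes, the mitophagy receptor gene Bnip3 and, as feedback, the hydroxylase gene Egln3. Macrophages and microglia also stabilise HIF after inflammatory stimuli and then rely more on glycolysis. Many of the glycolytic genes below are thus HIF targets as well, and they are kept apart only by the role of their product.

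The arrays differed in more than Dap12. The Tyrobp signal of the Dap12-deficient arrays averaged 1.74% of the wild-type mean. Median signals of all probe sets did not overlap between the groups, at 12.3, 14.0 and 11.9 on wild-type and 16.4, 14.5 and 14.6 on Dap12-deficient arrays. With the arrays set to a common median, 7 of the genes described here had an unadjusted p under 0.05, where 4 had it as deposited. Of 11 measured microglia markers, 10 were lower and 1 was higher in Dap12-deficient cultures, each with arrays that overlapped, and the median log2 difference was -0.29. Their summed signal was 27431 to 37634 on wild-type and 22692 to 30867 on Dap12-deficient arrays. The part of that shift in the differences below was not tested. Of 13 measured oligodendrocyte lineage markers, 11 were lower, with sums of 7790.4 to 11397 on wild-type arrays and 9112, 4366 and 3839.8 on Dap12-deficient arrays 1, 2 and 3. Of 10 astrocyte markers above the filter, 9 were higher, and the sums were 427 to 583 on wild-type and 716, 394 and 1413 on Dap12-deficient arrays 1, 2 and 3. Sums of 9 neuron markers were 443 to 549 and 330.1 to 440.3. Sums of 7 fibroblast markers were 113 to 212 and 115 to 155, and sums of 5 endothelial markers 56.6 to 93.3 and 58.3 to 91.7. Gjb6, Lum, Pdgfrb, Pecam1, Cldn5 and Cdh5 lay below the filter on dim probe sets. The mean log2 signal of 3 Y-linked genes was 7.10 to 7.36 on wild-type and 5.31 to 6.19 on Dap12-deficient arrays. The 3' to 5' signal ratio of the Gapdh control probe sets, a gauge of RNA and labelling quality, was 3.21 to 3.39 on wild-type and 3.58, 3.09 and 2.52 on Dap12-deficient arrays 1, 2 and 3. In RNA from whole cultures, fewer cells of a type and less RNA per cell cannot be told apart.

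**Figure D1:**
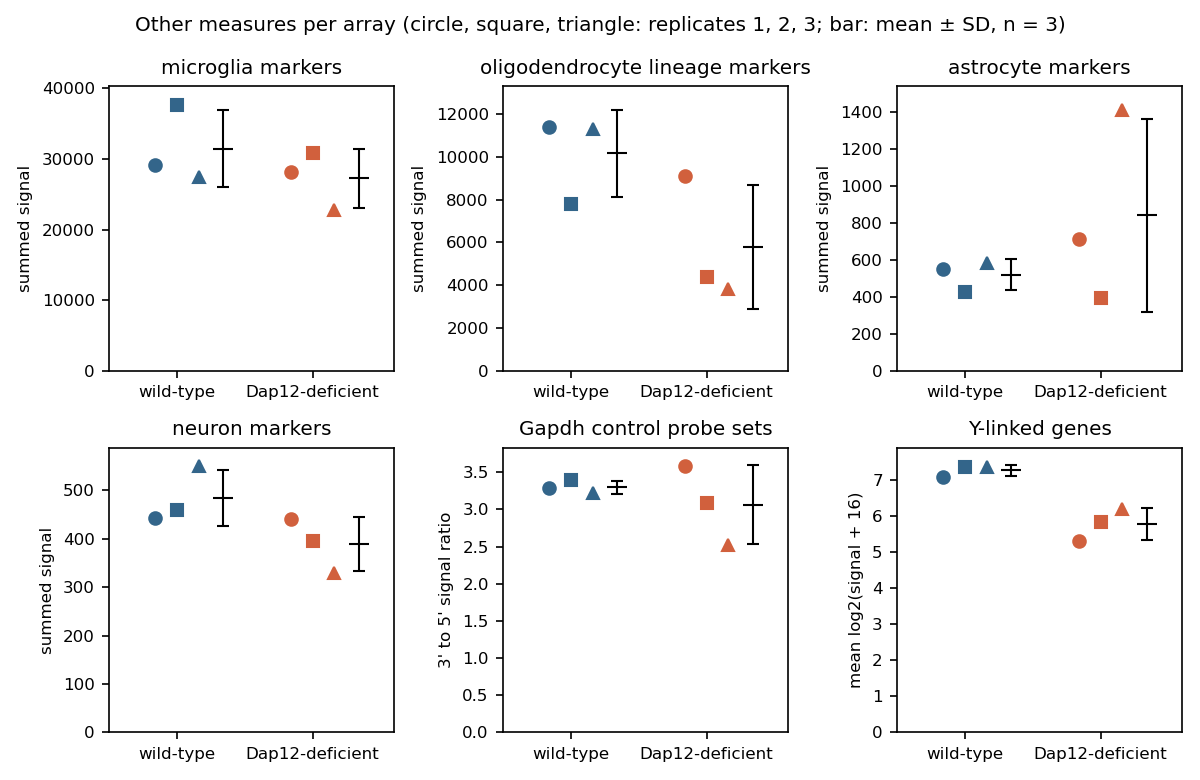
Summed signals of marker lists, the 3' to 5' ratio of the Gapdh control probe sets and the mean log2(signal + 16) of the Y-linked genes Uty, Kdm5d and Eif2s3y, by group; each point is an array and the black bar is the mean ± SD (n = 3). Oligodendrocyte sums overlapped between the groups through Dap12-deficient array 1 (9112), and the Y-linked values did not overlap.

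Across the 32 measured genes, the signals of Dap12-deficient cultures were lower for a few HIF-regulated genes, led by Egln3 (31.6% of the wild-type mean) and Bnip3 (49.0%). No gene passed an adjusted p under 0.05 in limma, by which 2 of 27022 probe sets (0.00740%) passed over the whole table. At an unadjusted p under 0.05, 4 genes were lower, Egln3, Bnip3, Ankrd37 and Aldoa, and 0 were higher. These are 12.5% of the 32, where 4.87% of 12875 genes were lower and 4.76% higher at that level. The genes were chosen with earlier results of these data known, so these shares are no test of the list. In 7 genes every Dap12-deficient array lay below every wild-type array, and in 1 gene, Kdm3a, every one lay above. Over all genes the share with arrays that did not overlap was 8.85% lower and 7.54% higher. The median log2 difference of the 32 genes was -0.13, with 22 lower and 10 higher, against -0.03 over all genes, of which 54.8% were lower. The count of 4 was 2 (Egln3 and Bnip3) without wild-type replicate 3, and 7 without Dap12-deficient replicate 2, where Aldoa, Bnip3, Egln3, Hk3, Pfkl and Tpi1 were lower and Kdm3a higher. Signals are linear and scaled to a common target, and log2 differences are of log2(signal + 16), Dap12-deficient minus wild-type, which understates the change of dim genes.

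**Figure D2:**
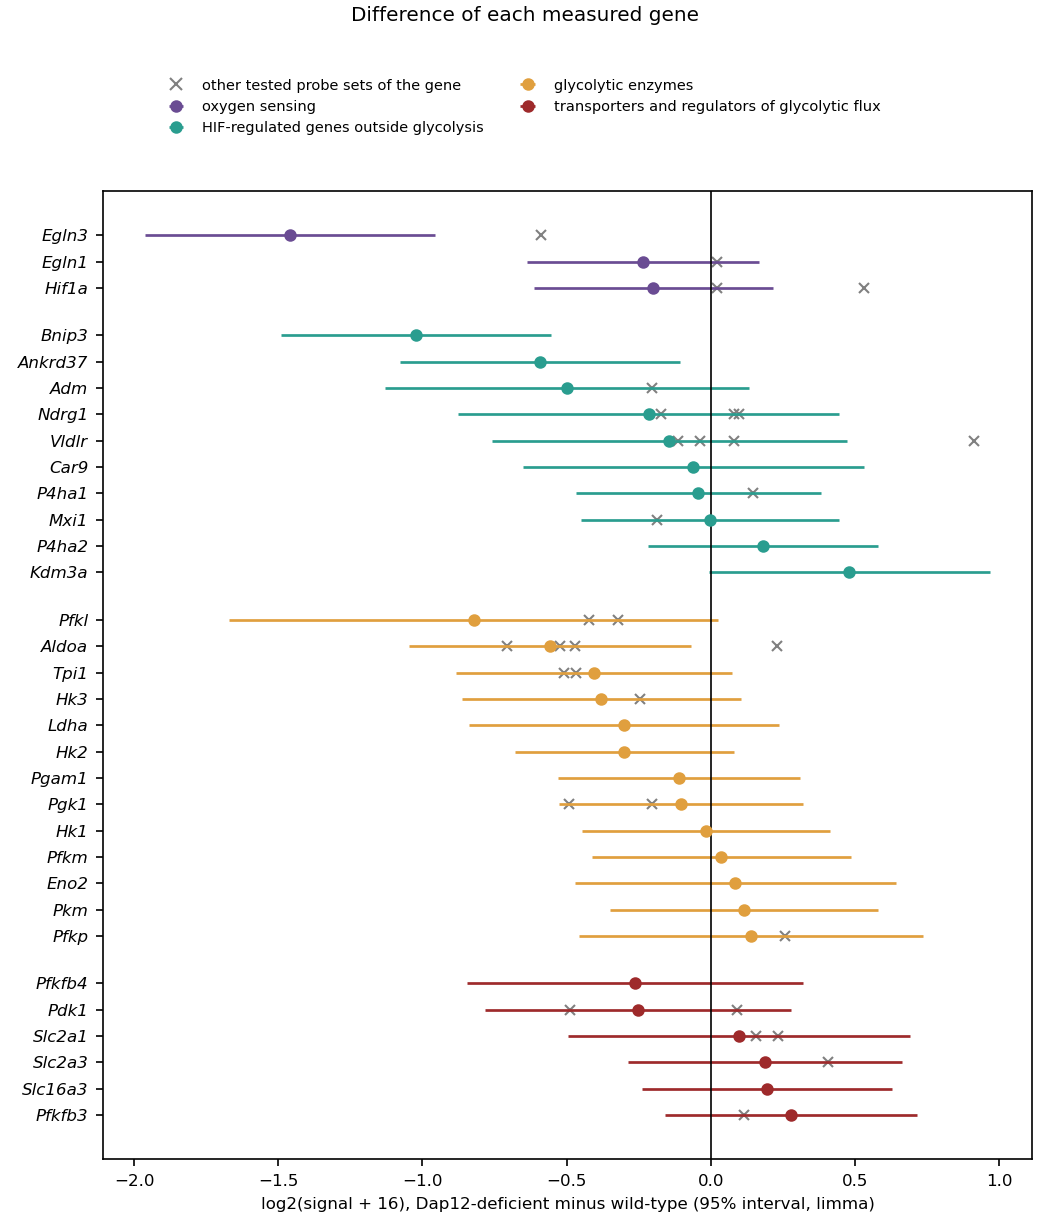
The log2(signal + 16) difference of each measured gene, Dap12-deficient minus wild-type, with its 95% interval from limma, grouped by role; crosses are other tested probe sets of the same gene. Intervals of Egln3, Bnip3, Ankrd37 and Aldoa lie below 0, and all others include 0.

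In oxygen sensing, the hydroxylase gene Egln3 stood apart from Egln1 and Hif1a. Egln3 encodes a HIF prolyl hydroxylase that is itself induced by HIF. Its signals were 244, 236 and 165 on the wild-type arrays and 58.1, 58.4 and 87.3 on the Dap12-deficient arrays. Every Dap12-deficient array thus lay far below every wild-type array, and the mean was 31.6% of the wild-type mean. The means were 215 ± 43.4 (SD, n = 3) and 67.9 ± 16.8 (SD, n = 3). The log2 difference was -1.46 (SE 0.23, 95% interval -1.96 to -0.96, limma adjusted p = 0.164), the 6th smallest p of 12875 genes. A dimmer probe set of Egln3 gave 23.7, 20.8 and 24.7 against 7.34 to 14.8, again with no overlap (log2 difference -0.59).

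Egln1, the hydroxylase that sets HIF levels in most cells, differed far less. Its signals were 298, 345 and 314 on wild-type and 253, 287 and 264 on Dap12-deficient arrays. The groups did not overlap, but the gap was small beside the spread, and the log2 difference was -0.24 (SE 0.18, 95% interval -0.64 to 0.17, adjusted p = 0.665 in limma). A dimmer probe set of Egln1 gave 0.02. Hif1a, which encodes the oxygen-labile subunit, was at 3668, 4101 and 3901 on wild-type and 4039.8, 3546 and 2698 on Dap12-deficient arrays. Its groups overlapped, with a log2 difference of -0.20 (SE 0.19, 95% interval -0.61 to 0.21). Other tested probe sets of Hif1a gave 0.02 and 0.53, so its direction was not settled. HIF is governed mainly through protein stability, which these arrays do not measure.

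Among HIF-regulated genes outside glycolysis, Bnip3 and Ankrd37 were lower and Kdm3a was higher. Bnip3 encodes a receptor in the outer mitochondrial membrane that directs mitochondria to autophagy. Its signals were 688, 732 and 752 on wild-type and 430.5, 368 and 266 on Dap12-deficient arrays. The wild-type arrays lay close together and all Dap12-deficient arrays lay well below them, with means of 724 ± 32.8 (SD, n = 3) and 355 ± 83.2 (SD, n = 3). The log2 difference of Bnip3 was -1.02 (SE 0.21, 95% interval -1.49 to -0.55, limma adjusted p = 0.279).

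Ankrd37, a small ankyrin repeat gene known as a direct HIF target, was at 35.7, 42.9 and 61.2 on wild-type and 33.2, 22.7 and 20.1 on Dap12-deficient arrays. The groups did not overlap, although wild-type array 1 and Dap12-deficient array 1 were close. The log2 difference was -0.59 (SE 0.22, adjusted p = 0.388 in limma). Adm, which encodes the vasodilator peptide adrenomedullin, was at 145, 59.6 and 61.2 on wild-type and 58.3, 54.4 and 47.7 on Dap12-deficient arrays. Its groups did not overlap, but apart from wild-type array 1 they nearly met, at 59.6 and 58.3, and the log2 difference was -0.50 (SE 0.29, 95% interval -1.13 to 0.13). Without wild-type replicate 1 it was -0.14. A dimmer probe set of Adm gave -0.20 (SE 0.21), with arrays that overlapped.

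Kdm3a, which encodes a HIF-induced histone demethylase, went the other way. Its signals were 617, 553 and 588 on wild-type and 683, 724 and 1125 on Dap12-deficient arrays. Every Dap12-deficient array lay above every wild-type array, and array 3 stood far above the other two. The log2 difference was 0.48 (SE 0.22, 95% interval -0.01 to 0.97, limma adjusted p = 0.477), and it was 0.26 without Dap12-deficient replicate 3. That array also held the highest sum of astrocyte markers (1413), and the part of those cells in the value of Kdm3a was not tested.

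The other 6 genes of this group had 95% intervals on both sides of 0. They were Ndrg1, a stress-responsive gene also made by oligodendrocytes, the carbonic anhydrase gene Car9, the collagen prolyl hydroxylase genes P4ha1 and P4ha2, the Myc antagonist gene Mxi1 and the lipoprotein receptor gene Vldlr. Log2 differences ran from -0.22 for Ndrg1 to 0.18 for P4ha2. The brightest probe set of Ndrg1 was tight on wild-type arrays (178, 168 and 168). It was scattered on Dap12-deficient arrays (237, 83.7 and 151), on both sides of the wild-type values. Without Dap12-deficient replicate 1 its log2 difference was -0.54, with an unadjusted p under 0.05, and without Dap12-deficient replicate 2 it was 0.13. The next brightest was at 138, 113 and 165 on wild-type and 198, 86.6 and 185 on Dap12-deficient arrays (log2 difference 0.10). Dimmer tested probe sets of Ndrg1 gave 0.08 and -0.17, so its direction was not settled. Mxi1 averaged 467 ± 62.6 (SD, n = 3) and 467 ± 73.2 (SD, n = 3). P4ha1 was at 467, 612 and 483 on wild-type and 552, 487 and 467 on Dap12-deficient arrays, and its dimmer probe set gave 0.15. Both probe sets of P4ha1 thus overlapped between the groups. The brightest probe set of Vldlr was at 188, 111 and 174 on wild-type and 206, 125 and 101 on Dap12-deficient arrays. A dim probe set of Vldlr gave 12.1, 17.5 and 1.31 on wild-type against 41.6, 25.3 and 29.5 on Dap12-deficient arrays, higher with no overlap (log2 difference 0.91), whereas the brightest gave -0.14, so the direction of Vldlr was not settled. Over the 10 measured genes of the group 8 were lower and 2 higher, with a median log2 difference of -0.10. Without Dap12-deficient replicate 1 the median was -0.26, and without wild-type replicate 1, Dap12-deficient replicate 2 or Dap12-deficient replicate 3 it was -0.07 each.

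**Figure D3:**
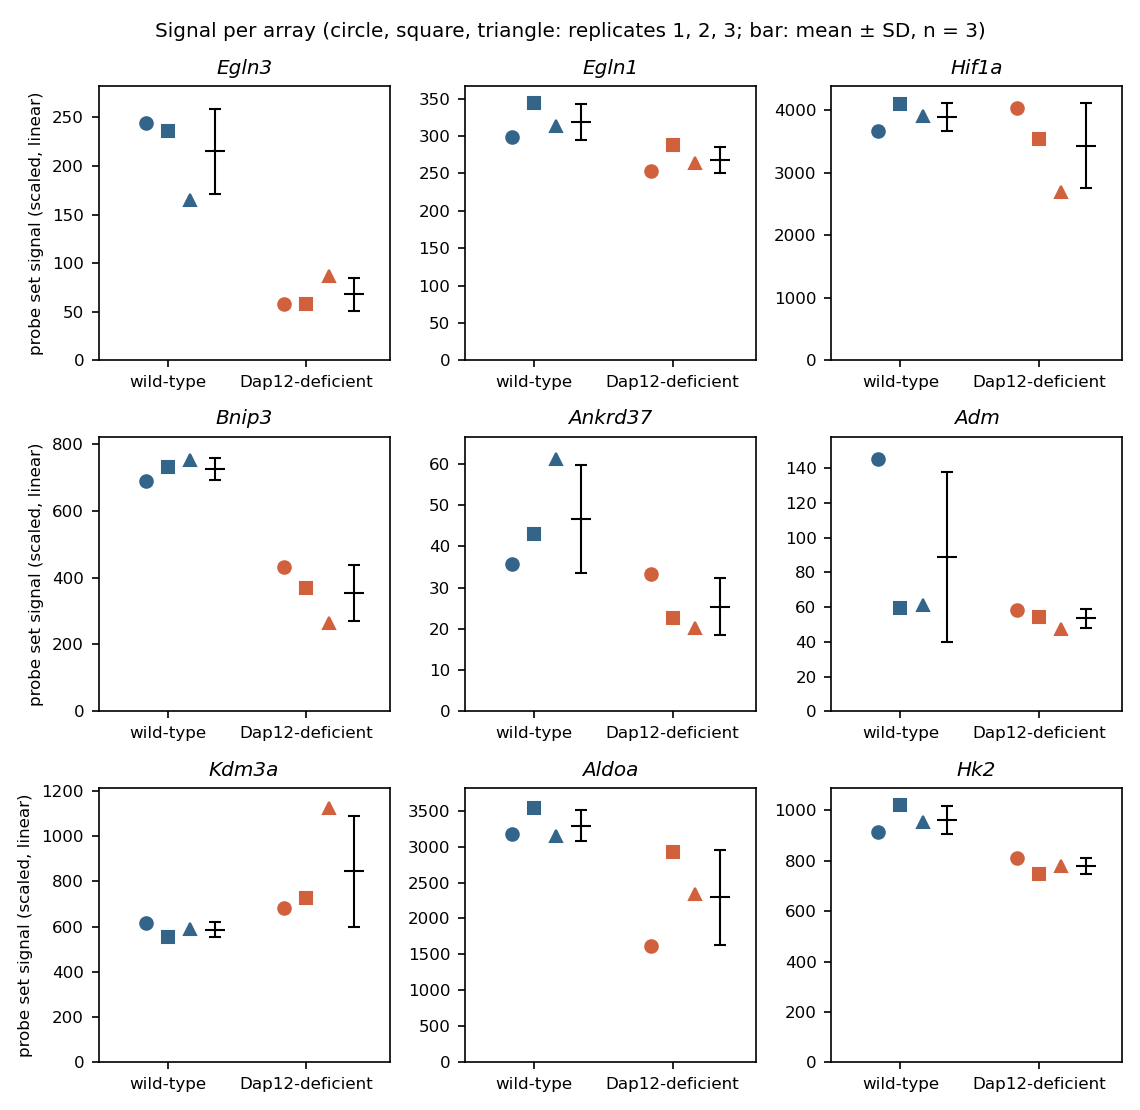
Linear probe set signals of 9 genes on each array, by group, with the mean ± SD (n = 3) as a black bar; every axis starts at 0. Egln3 and Bnip3 separate the groups widely (Bnip3 688 to 752 against 266 to 430.5), Hif1a overlaps, and Kdm3a is higher on all Dap12-deficient arrays.

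The promoter sequences of the 4 genes with the smallest p and of Kdm3a, which went the other way, are shown to set the core letters of HIF binding beside these differences. Each window runs from 250 bases before to 50 bases after an annotated transcript start, 5' to 3' along the gene, from RefSeq on GRCm38.p6. Capitals mark every ACGTG or GCGTG on either strand (CACGT or CACGC on the strand shown). The letters ACGTG are also part of the E-box CACGTG, which other factors bind.
Egln3, chr12:54203825-54204124, minus strand: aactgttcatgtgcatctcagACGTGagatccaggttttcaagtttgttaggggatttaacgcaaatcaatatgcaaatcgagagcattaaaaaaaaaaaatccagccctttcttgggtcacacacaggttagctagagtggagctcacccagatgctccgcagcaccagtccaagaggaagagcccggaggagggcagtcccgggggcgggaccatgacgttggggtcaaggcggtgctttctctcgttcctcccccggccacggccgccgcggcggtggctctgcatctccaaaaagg
Bnip3, chr7:138909457-138909756, minus strand: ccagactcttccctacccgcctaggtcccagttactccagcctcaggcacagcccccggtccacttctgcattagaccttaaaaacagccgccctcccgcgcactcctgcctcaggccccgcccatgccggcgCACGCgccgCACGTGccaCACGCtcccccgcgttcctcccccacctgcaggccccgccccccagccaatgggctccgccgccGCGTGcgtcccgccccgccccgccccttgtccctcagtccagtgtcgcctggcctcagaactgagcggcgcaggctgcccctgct
Ankrd37, chr8:45999801-46000100, minus strand: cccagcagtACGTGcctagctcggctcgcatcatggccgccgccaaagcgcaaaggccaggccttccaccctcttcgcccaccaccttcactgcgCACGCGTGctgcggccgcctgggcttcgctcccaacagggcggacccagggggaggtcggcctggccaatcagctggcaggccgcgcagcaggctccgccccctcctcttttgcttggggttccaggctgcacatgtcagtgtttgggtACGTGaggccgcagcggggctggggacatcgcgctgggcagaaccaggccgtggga
Aldoa, chr7:126799205-126799504, minus strand: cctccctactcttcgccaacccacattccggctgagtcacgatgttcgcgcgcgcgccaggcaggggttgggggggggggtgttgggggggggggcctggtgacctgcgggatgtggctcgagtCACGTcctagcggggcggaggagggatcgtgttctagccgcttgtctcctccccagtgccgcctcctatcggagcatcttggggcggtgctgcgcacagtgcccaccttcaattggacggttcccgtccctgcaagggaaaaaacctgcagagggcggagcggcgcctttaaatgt
Kdm3a, chr6:71632868-71633167, minus strand: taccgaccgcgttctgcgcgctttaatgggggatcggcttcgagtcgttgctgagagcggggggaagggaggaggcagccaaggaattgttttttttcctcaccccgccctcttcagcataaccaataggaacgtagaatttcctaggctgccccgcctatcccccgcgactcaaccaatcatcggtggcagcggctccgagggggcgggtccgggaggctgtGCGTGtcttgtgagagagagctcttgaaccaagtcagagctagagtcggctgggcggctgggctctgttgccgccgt
The window of Bnip3 held 5 matches, a pair of them in a single CACGTG. That of Ankrd37 held 4, a pair of them overlapping in a single CACGCGTG. The windows of Egln3 and Kdm3a and the window of Aldoa shown held 1 each. Aldoa had 2 further windows, of which 1 overlaps the window shown and shares its match and 1 held none, and Kdm3a had 2 further windows without a match. Of all 32851 promoter windows, 43.8% held at least 1 match, and 19.6% held ACGTG on either strand. Windows were found for 32 of the 35 genes, all but Bnip3l, Ndrg1 and Slc2a3. Of their 49 windows, some of which overlap, 36 (73.5%) held a match and 25 (51.0%) held ACGTG. These shares and those of all windows were not matched for base composition. Genes whose arrays overlapped had matches too, with 7 in the first window of Ldha and 2 in that of Pgk1. The Ldha window held 2 CACGTG, each counted as a pair of matches. A match is only a run of letters, and binding of HIF was not measured here.

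Arrays did not overlap for 2 of 13 glycolytic enzymes (15.4%), Aldoa and Hk2, near the share of 16.4% over all genes. Of the 13 measured enzymes, 9 were lower and 4 higher, with a median log2 difference of -0.11 and a range from -0.82 to 0.14. Wild-type array 2 held the highest signal of the 6 arrays for 9 of the 13 enzymes, and Dap12-deficient array 1 the lowest for 5. Without wild-type replicate 2 the median was -0.02. Without wild-type replicate 3 and without Dap12-deficient replicate 2 it was -0.22 each. With the mean of all probe sets of each gene it was -0.27, where that of the HIF-regulated genes outside glycolysis was -0.04, so the order of these medians was not settled. With a term for myelin genes it was -0.26, and without probe sets whose IDs end in _s_at, _x_at or _a_at it was -0.20.

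The 3 hexokinases start glycolysis by phosphorylating glucose. Hk2, the isoform induced by HIF, was at 913, 1022 and 952 on wild-type and 811, 746 and 777 on Dap12-deficient arrays. The groups were tight and did not overlap, at 80.8% of the wild-type mean, with a log2 difference of -0.30 (SE 0.17, 95% interval -0.68 to 0.08, limma adjusted p = 0.565). Hk3, the isoform of myeloid cells, was at 685, 635 and 633 on wild-type and 399, 670.2 and 455 on Dap12-deficient arrays, so that arrays 1 and 3 were low and array 2 lay among the wild-type values (log2 difference -0.38, SE 0.22). It was -0.23 without Dap12-deficient replicate 1 and -0.59 without Dap12-deficient replicate 2. Hk1, the widely expressed isoform, had a log2 difference of -0.02 (95% interval -0.45 to 0.41).

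Further down the pathway, Dap12-deficient array 1 was lowest for Aldoa, Pfkl and Tpi1. Aldoa encodes aldolase, which cleaves fructose bisphosphate. Its signals were 3181, 3536 and 3150.0 on wild-type and 1616, 2924 and 2337 on Dap12-deficient arrays, with no overlap and the widest gap on array 1. The log2 difference of Aldoa was -0.56 (SE 0.22, 95% interval -1.05 to -0.07, limma adjusted p = 0.421). It was -0.33 without Dap12-deficient replicate 1, and its unadjusted p was not under 0.05 there or without any single wild-type array. Of its 4 other probe sets 3 gave -0.47 to -0.71 with arrays that overlapped, and 1 gave 0.23. All 5 are of a kind that can bind several transcripts, so that none was left when such probe sets were dropped. Pfkl, the liver-type phosphofructokinase gene, was at 117, 199.6 and 119 on wild-type and 34.2, 150.3 and 67.7 on Dap12-deficient arrays. Its log2 difference of -0.82 (SE 0.38, 95% interval -1.67 to 0.03) was uncertain, since array 2 lay inside the wild-type range. It was -0.41 without Dap12-deficient replicate 1 and -1.27 without Dap12-deficient replicate 2. Tpi1, triosephosphate isomerase, was at 1336, 1602 and 1469 on wild-type and 818, 1338 and 1223 on Dap12-deficient arrays, where array 1 was lowest again and array 2 just reached the wild-type range (log2 difference -0.40, SE 0.22). The 2 other probe sets of Tpi1 were lower with no overlap, at -0.51 (SE 0.22) and -0.47 (SE 0.21). Without Dap12-deficient replicate 1 the difference of the brightest was -0.19.

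The remaining enzymes had log2 differences between -0.30 and 0.14, each with a 95% interval on both sides of 0. Pfkm and Pfkp, the muscle and platelet isoforms of phosphofructokinase, gave 0.04 and 0.14. Pgk1 and Pgam1, which act in the payoff phase, gave -0.10 and -0.11, although a dimmer probe set of Pgk1 gave -0.49 with arrays that did not overlap. Eno2, the neuronal enolase, gave 0.08 and Pkm, pyruvate kinase, 0.11. Ldha, which makes lactate, was at 3272, 4688 and 3058 on wild-type and 3242, 3644 and 2110.4 on Dap12-deficient arrays. Its groups overlapped broadly, with a log2 difference of -0.30 (SE 0.24, 95% interval -0.84 to 0.24). The Gapdh control probe set nearest the 3' end, which was not part of the fit, gave 3621, 5125 and 3941 on wild-type and 3509, 4236 and 3957 on Dap12-deficient arrays, so its groups overlapped as well.

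**Figure D4:**
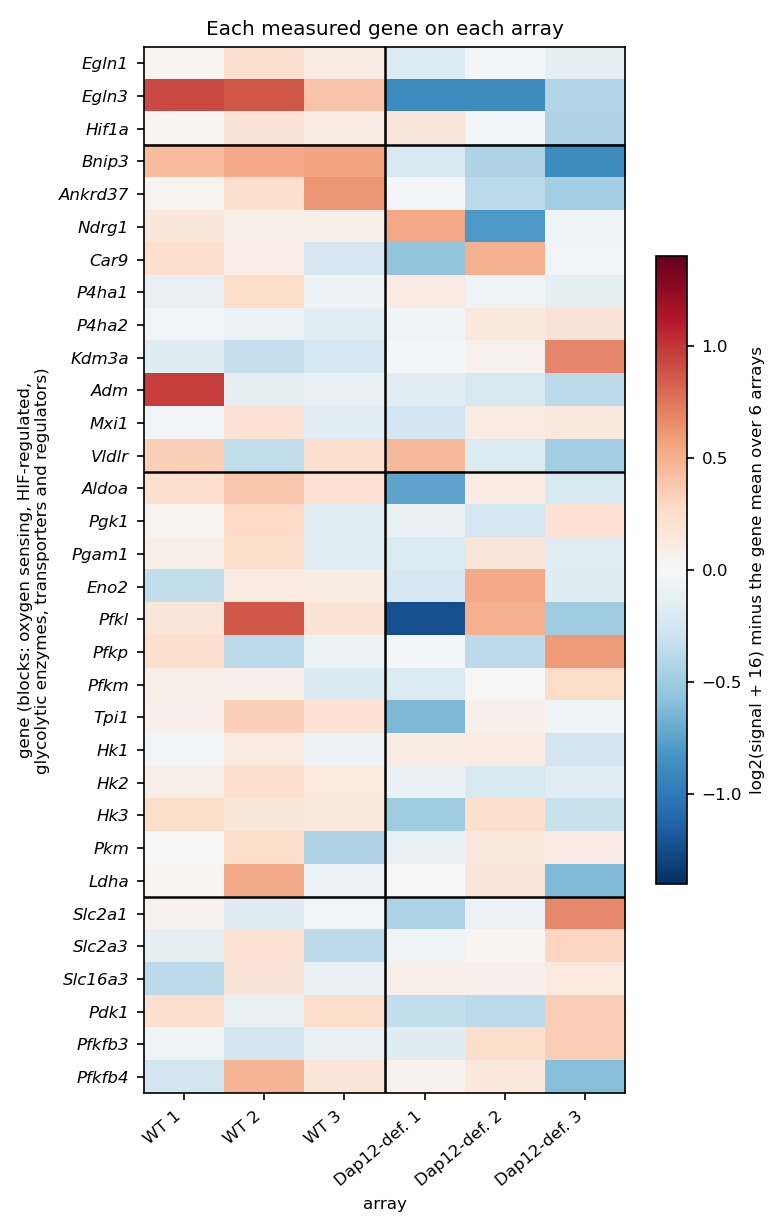
log2(signal + 16) of each measured gene minus its mean over the 6 arrays, with genes as rows in 4 blocks by role and arrays as columns. Egln3 and Bnip3 are high on all wild-type arrays, whereas Aldoa, Pfkl, Tpi1 and Hk3 are lowest on Dap12-deficient array 1 and nearer to wild-type on array 2.

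Transporters and regulators of glycolytic flux were higher in 4 of 6 genes, with a median log2 difference of 0.14 and 0 genes with an unadjusted p under 0.05 in limma. None had arrays of its brightest probe set that did not overlap. Slc2a1, the main glucose transporter gene of most cells, was at 771, 655 and 715 on wild-type and 537, 695 and 1185 on Dap12-deficient arrays, with the highest and the lowest signal both on Dap12-deficient arrays (log2 difference 0.10, 95% interval -0.50 to 0.69). Without Dap12-deficient replicate 3 the difference of Slc2a1 was -0.22. Slc2a3, the high-affinity glucose transporter gene, gave 0.19, and 0.40 with no overlap on a dimmer probe set. The lactate exporter gene Slc16a3 was dim, with signals of 5.66 to 15.7 over the 6 arrays, near or below the array medians, and its difference of 0.19 says little. Pfkfb3, whose product makes the activator of phosphofructokinase, was at 769, 670.1 and 745 on wild-type and 711, 951 and 1024 on Dap12-deficient arrays, higher on 2 of 3 (log2 difference 0.28, SE 0.20). Without Dap12-deficient replicate 1 it was 0.43, with an unadjusted p under 0.05, and without Dap12-deficient replicate 3 it was 0.18. Pfkfb4 gave -0.26. Pdk1, whose product inhibits pyruvate dehydrogenase, was at 449.6, 347 and 457 on wild-type and 295, 287 and 486 on Dap12-deficient arrays, low on arrays 1 and 2 and highest of all on array 3 (log2 difference -0.25). Without Dap12-deficient replicate 3 it was -0.49, with an unadjusted p under 0.05, and without Dap12-deficient replicate 2 it was -0.13. Its 2 other tested probe sets gave -0.49, with no overlap, and 0.09.

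Other genes of these pathways lay on both sides as well. Of 30 further HIF targets tested, 15 were higher and 15 lower with a median log2 difference of 0.00. At an unadjusted p under 0.05, 6 were higher and 1 was lower, where 4.76% of all genes were higher and 4.87% lower. Of the 30, 0 passed limma's adjusted threshold. Bhlhe40, a transcription factor gene, was at 970.1, 769 and 812 on wild-type and 1986, 1643 and 1657 on Dap12-deficient arrays, higher with no overlap (log2 difference 1.04, SE 0.18). Cxcr4, a chemokine receptor gene, was at 327, 387 and 416 against 1035, 492 and 728, also without overlap (0.91, SE 0.26). Vegfa, the angiogenic factor gene, gave 0.54 (SE 0.24) with arrays that overlapped, and 0.00 on a dimmer probe set. Wsb1, Ppp1r3c and Edn1 gave 0.56, 1.03 and 0.53, all with arrays that overlapped, and Tgfa gave -0.54, with no overlap, but 0.45 and 0.01 on dimmer probe sets. These genes respond to many signals besides HIF, and the part of HIF in their values was not tested. Nor was it tested for Egln3, Bnip3, Ankrd37 or Aldoa. Of 11 further components of the HIF pathway, 8 were lower and 3 higher, and 0 had an unadjusted p under 0.05 or arrays that did not overlap.

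Beyond glycolysis proper the differences were scattered too. Of 17 further glycolysis genes tested, 3 (17.6%) were lower and 1 was higher at an unadjusted p under 0.05. Over all genes, 4.87% were lower and 4.76% higher at that level. Mpc1, a subunit of the mitochondrial pyruvate carrier, was at 1253, 1405 and 1113 on wild-type and 847, 1027 and 744 on Dap12-deficient arrays, lower with no overlap (log2 difference -0.52, SE 0.19). Slc16a1, a transporter gene of lactate and pyruvate, was at 220.3, 309 and 332 against 565, 361 and 510.5, higher with no overlap (0.70, SE 0.23). Bpgm gave -0.66 and Gpd1 -1.17, with arrays that overlapped. On dimmer probe sets Bpgm gave -0.41, with no overlap, and 0.06, and Gpd1 gave -0.35 and -0.11. Of 18 genes of pyruvate oxidation and the citrate cycle, 13 were lower and 5 higher. Arrays did not overlap for 33.3% of the 18, in both directions, against 16.4% of all genes. Pdhb, a subunit of pyruvate dehydrogenase, was at 1354, 1393 and 1292 against 1890.5, 1867 and 2284 (0.57, SE 0.17), and Pdp1, which activates that enzyme, gave 0.51. Dlat, another subunit, gave -0.47, Pdk3 -0.44 and Sdhc, of succinate dehydrogenase, -0.62, each with arrays that did not overlap. On dimmer probe sets Dlat gave -0.40, with no overlap, and -0.12, with overlap, and Sdhc gave -0.11, with overlap. Those of Pdhb and Pdp1 gave 0.74, with no overlap, and 0.81, with overlap. Of 6 genes of the pentose phosphate pathway, Pgls alone had an unadjusted p under 0.05 (-0.93, SE 0.40). None of these genes passed the adjusted threshold in limma.

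The low signals of Egln3 and Bnip3 were set beside the other measures that differed between the arrays. On Dap12-deficient array 1, where the oligodendrocyte sum (9112) lay inside the wild-type range, Egln3 was at 58.1 and Bnip3 at 430.5, both below every wild-type array. On that array Mbp gave 4714 of the sum. The lineage marker Cspg4 separated the groups, at 174, 165 and 162 on wild-type and 45.8, 55.4 and 43.3 on Dap12-deficient arrays. Only 2 of the 13 measured markers of this lineage had arrays that did not overlap. Olig1, Olig2 and Pdgfra overlapped, with log2 differences of 0.07, 0.08 and -0.06. The part of oligodendrocyte lineage cells in the values of Egln3 and Bnip3 was not tested. With a term for myelin genes in the fit, the log2 difference was -1.75 for Egln3, -0.71 for Bnip3, -0.30 for Ankrd37, -0.93 for Aldoa and 0.19 for Kdm3a. With a term for the Gapdh 3' to 5' ratio, it was -1.56 for Egln3, -0.87 for Bnip3, -0.50 for Ankrd37, -0.66 for Aldoa and 0.31 for Kdm3a. Under both terms the unadjusted p in limma was under 0.05 for Egln3, Bnip3, Aldoa, Pfkl and Tpi1, all lower. For Ankrd37 and Kdm3a it was not under 0.05 with either term. The Y-linked values did not overlap between the groups, so a term for them and the Dap12 groups can hardly be told apart. With that term, the difference was -0.98 (SE 0.65) for Egln3, -1.92 (SE 0.55) for Bnip3, -1.05 (SE 0.64) for Ankrd37, 1.41 (SE 0.57) for Kdm3a and 0.40 (SE 0.57) for Aldoa, whose sign turned. The unadjusted p of Kdm3a was then under 0.05, and those of Egln3 and Ankrd37 were not. Bnip3, Aldoa, Ldha and Adm share chromosome 7 with Tyrobp in GRCm38.p6, with 1226, 1087, 329 and 941 protein-coding genes between, and Gpi1, with 83 between, was not analysed here.

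**Figure D5:**
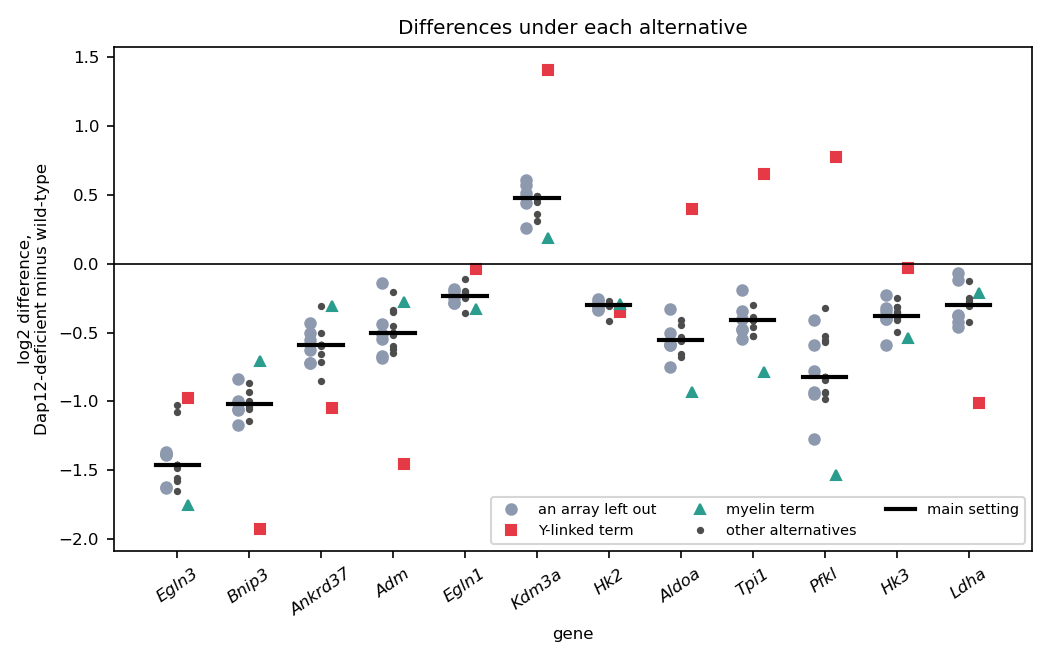
Log2 differences of 12 genes, Dap12-deficient minus wild-type, under the main setting (black line) and each alternative; circles leave out an array. Egln3, Bnip3, Ankrd37 and Adm stay below 0 throughout, Kdm3a stays above, and the Y-linked term turns Aldoa, Tpi1 and Pfkl above 0 (0.40, 0.65 and 0.77).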

How the data were processed

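The files hold linear intensity values per probe set on 6 arrays, scaled by the authors to a common target, as equal trimmed means show. GCOS, software of the array maker, is listed in the submitters' processing notes, and the sources used here do not give its summary algorithm. The labels' protocols describe amplification with a two-cycle kit. Of 45101 probe sets, 64 controls were left out, and those whose mean over the 6 arrays reached 8.51, the 40th percentile, were kept, which left 27022 probe sets and 12875 genes, all 32 measured genes among them. Differences were fitted on log2(signal + 16) with limma 3.58.1 (lmFit, eBayes with trend) under R 4.3.3, and two-sided p-values were adjusted over all tested probe sets by Benjamini-Hochberg at a threshold of 0.05. The steps were tested on simulated data. Genes, lists and roles were chosen with earlier results of these data known, so no list was tested. By the naming rule, signals on each array are given for genes with an unadjusted p under 0.05 or arrays that do not overlap, for oxygen sensing, for the brightest gene of each role and for genes whose probe sets disagree in direction. Signals of Slc2a1, Tpi1, Hk3 and Pfkl were added after their values were seen, as were those of Cspg4 and of a further probe set of Egln3. Among other pathway genes, those with an unadjusted p under 0.05 are named. Replicate numbers follow the order of deposit and pair nothing. The alternatives covered the pseudocount (1 or 64), scaling by quantiles or to a common median, the filter (none, or the 60th percentile), the variance model (no trend, robust, array weights), the probe sets used for a gene, terms for title numbers, myelin genes, Y-linked genes and the Gapdh ratio, and leaving out each array. The number of arrays limits the precision. Figures were made in Python 3.11.15 with matplotlib 3.10.9.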

Additional observations from a re-analysis of the deposited data

How the results depend on the processing

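Under the 22 alternatives 0 of the 32 genes passed the adjusted threshold in limma, and the smallest adjusted p of Egln3 was 0.05, without Dap12-deficient replicate 2. Of 17 genes whose difference reached its SE, 12 kept their sign throughout, Egln3, Bnip3, Ankrd37, Adm, Egln1, Kdm3a and Hk2 among them. Of the 15 with smaller differences, 14 changed sign somewhere. Hif1a turned to 0.021 without probe sets whose IDs end in _s_at, _x_at or _a_at. It was 0.13 with the mean of its probe sets and 0.049 with the myelin term. The Y-linked term turned Aldoa (0.40), Pdk1 (0.61), Pfkl (0.77), Tpi1 (0.65) and the glycolytic median (0.39), and moved the median of HIF-regulated genes outside glycolysis to -0.67; the cause was not tested. A common median moved the median of all genes by -0.12, that of the HIF-regulated genes to -0.22 and the count of genes with an unadjusted p under 0.05 from 4 to 7. A common median shifts every gene of an array by the same amount. The medians of both groups relative to all genes (-0.07 and -0.08) thus could not move. Leaving out each array gave counts of 2 to 7, medians of -0.26 to -0.068 for HIF-regulated genes and -0.22 to -0.02 for glycolytic enzymes. The 2 probe sets called over the whole table became 4 with array weights and 4 with 1 probe set per gene. They became 1 without IDs ending in _s_at, _x_at or _a_at, 5 with the myelin term and 11 with the Y-linked term. Without single arrays they numbered 2 to 172 (15 without Dap12-deficient replicate 1 and 172 without Dap12-deficient replicate 2). No alternative paired the arrays, whose numbers follow the order of deposit.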
